A study of Mus musculus with 4 samples.

Results

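The small leucine-rich proteoglycans are a family of secreted matrix proteins, each a curved core of leucine-rich repeats that in most members carries chondroitin, dermatan or keratan sulfate chains. They bind collagen fibrils and set how thick and how regularly packed the fibrils become, and several of them also hold growth factors of the TGF-beta family in the matrix. In the aortic wall they sit between the collagen bundles and elastic layers made by smooth muscle cells and fibroblasts, and loss of biglycan is known to weaken the wall. The genes described here are the 9 whose symbol in the count tables is Bgn, Dcn, Lum, Fmod, Ogn, Aspn, Prelp, Omd or Podn, of 32287 genes listed. All 9 were found, all 9 had at least 1 transcript in each library, and all 9 passed the filter on low counts that left 14474 genes for testing. Levels are counts of unique molecular identifiers (UMIs, 1 per captured transcript) scaled to CPM, counts per 1e6 UMIs, summed over the cells of a library. Since the chemistry reads only the 3′ end of a transcript, a level is not divided by gene length.

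The cells were smooth muscle cells sorted for GFP from the ascending aorta and arch of C57BL/6J mice aged 12 weeks, profiled one by one with 3′ droplet chemistry. The control mice (WT, GFPiSMC) were Myh11-CreERT2.mT/mG and gave 2 libraries, and the knockout mice (KO, Tgfbr1/2iSMCKO) added floxed alleles of both receptors (Tgfbr1f/f.Tgfbr2f/f) to that Myh11-CreERT2.mT/mG background and gave 2 libraries. In both groups the Myh11 promoter drove a tamoxifen-inducible Cre, so that deletion and the switch of the mT/mG reporter to GFP were aimed at smooth muscle, and every mouse had tamoxifen for 5 days. The course was 1 mg a day from an age of 4 weeks or 2 mg a day from 11 weeks, and is not stated for each library, so a difference in course and the genotype cannot be told apart. The labels speak of individual aortic segments without saying how many mice stand behind a library, so the p-values measure only the spread between these samples. The question the comparison addresses is what aortic smooth muscle transcribes when both TGF-beta receptors are to be deleted.

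The libraries held 35715682, 50093465, 59498336 and 51107663 UMIs in WT 1, WT 2, KO 1 and KO 2, of which 13468 kept cells were used. Tgfbr1 stood at 80.8 and 82.3 CPM in the controls and 73.3 and 76.1 CPM in the knockouts, and Tgfbr2 at 51.6 and 45.1 CPM in the controls and 46.5 and 47.3 CPM in the knockouts. Neither passed the test, and 3′ reads outside the deleted exons check nothing about recombination. The summed level of 10 smooth muscle markers was 50293 and 52694 CPM in the controls and 59359 and 56219 CPM in the knockouts, with no overlap, and 5 of the 10 were higher in KO and 1 lower. The part of this in the members' changes was not tested. Fibroblast markers, 12 in all, summed to 140 and 161 CPM in the controls and 127 and 124 CPM in the knockouts, most of it Col14a1. Across all genes tested, 9.17% were higher and 11.1% lower in KO (edgeR quasi-likelihood test, Benjamini-Hochberg adjusted p under 0.05). Without WT 1 these were 805 and 1039 genes in place of 1327 and 1611. The median log2 change of all tested genes was −0.00. In 63.5% of all tested genes the KO libraries did not overlap the WT libraries, so a lack of overlap alone was common.

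The starts of the 4 genes that were lower in KO are shown first, since 3 of them lie in 1 row on chromosome 13 and the results return to that row. Each sequence is the 250 bases before the RefSeq start site on GRCm38.p6, from the plus strand, on which all 4 genes are read. Capitals mark GTCT or its reverse complement AGAC, the shortest stretch that SMAD proteins, the transcription factors downstream of the TGF-beta receptors, are known to bind.

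Aspn, chr13:49544193-49544442: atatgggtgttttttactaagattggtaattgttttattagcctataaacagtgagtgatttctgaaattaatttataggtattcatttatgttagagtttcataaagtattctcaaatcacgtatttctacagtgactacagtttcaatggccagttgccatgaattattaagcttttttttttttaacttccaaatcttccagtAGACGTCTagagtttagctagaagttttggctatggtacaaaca
Omd, chr13:49582212-49582461: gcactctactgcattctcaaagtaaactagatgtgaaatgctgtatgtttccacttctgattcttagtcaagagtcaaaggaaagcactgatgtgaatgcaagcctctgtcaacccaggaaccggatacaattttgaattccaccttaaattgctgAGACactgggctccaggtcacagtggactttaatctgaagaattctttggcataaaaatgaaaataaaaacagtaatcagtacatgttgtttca
Ogn, chr13:49607765-49608014: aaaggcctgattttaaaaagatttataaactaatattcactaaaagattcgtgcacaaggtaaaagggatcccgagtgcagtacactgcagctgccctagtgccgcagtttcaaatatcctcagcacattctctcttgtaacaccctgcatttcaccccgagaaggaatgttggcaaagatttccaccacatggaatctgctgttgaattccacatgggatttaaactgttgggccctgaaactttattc
Bgn, chrX:73483351-73483600: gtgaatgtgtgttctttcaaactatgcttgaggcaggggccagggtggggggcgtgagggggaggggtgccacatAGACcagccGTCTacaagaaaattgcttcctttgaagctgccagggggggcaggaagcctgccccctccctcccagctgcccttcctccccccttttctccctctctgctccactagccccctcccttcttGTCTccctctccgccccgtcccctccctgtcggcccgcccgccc

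The Aspn window held 2 matches, next to each other, Omd 1, Ogn 0 and Bgn 3. Such a 4-base match is common: 82.9% of all 32851 windows of this length held at least 1, with a median of 2, so the matches only describe these windows. The windows differed more in base composition. G and C made up 75 of the 250 bases of the Aspn window, and 38.4% of Omd, 42.0% of Ogn and 64.4% of Bgn, against a median of 52.4% over all windows. Windows of 250 bases before to 50 after the start were available for 7 of the 9 genes, not for Dcn and Lum. In them CAGACA, a longer SMAD element that 21.04% of all windows hold, GTCTAGAC (0.213%), GGCGCC (11.9%), TGAGTCA with its reverse complement TGACTCA (5.20%) and the CArG box (1.63%) were searched on both strands. Matches came up in Prelp (CAGACA at bases 15 to 20 and 25 to 30 after the start) and Podn (GGCGCC and CAGACA), and none in Aspn, Omd, Ogn, Bgn or Fmod.

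Of the 9 genes, 4 were lower in KO (Bgn, Ogn, Aspn, Omd) and 2 were higher (Dcn, Lum), while Prelp, Podn and Fmod did not pass the test. The shares to read these counts against are the 11.1% of all genes called lower and the 9.17% called higher. The family's summed level was 3917 and 3804 CPM in the WT pair and 2095 and 2058 CPM in the KO pair. Bgn, Ogn and Prelp together made up 97.9% and 98.1% of that sum in WT and 97.9% and 96.8% in KO. Within it the share of Bgn was 60.3% and 60.6% in WT and 43.7% and 43.3% in KO, and that of Ogn 30.20% and 30.02% against 39.0% and 39.6%.

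**Figure D1:**
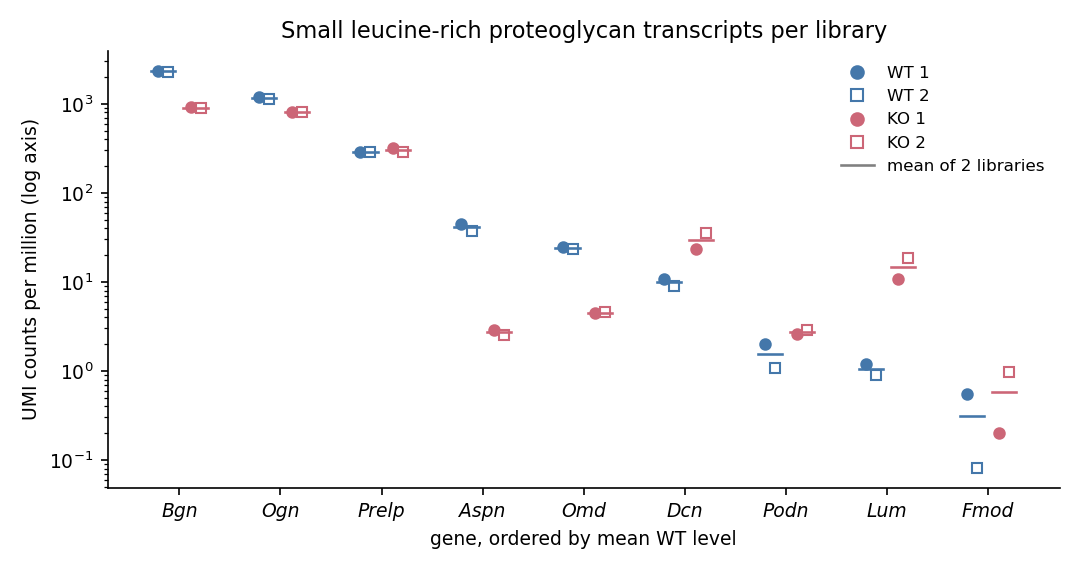
CPM (log axis) of the 9 genes in each library, ordered by mean WT level; circles are replicate 1, squares replicate 2, blue WT, red KO, and short lines the mean of 2 libraries. Bgn falls from 2363 and 2305 CPM to 916 and 892 CPM, Aspn and Omd fall further from lower levels, and Dcn and Lum stand higher in both KO libraries.

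In WT the genes ranked, from high to low, Bgn, Ogn, Prelp, Aspn, Omd, Dcn, Podn, Lum and Fmod. Neighbours in that order did not overlap between the 2 WT libraries, except Podn (2.01 and 1.08 CPM) with Lum (1.20 and 0.894 CPM). In KO, Dcn and Lum had moved up to follow Prelp, ahead of Omd, and Aspn (2.91 and 2.51 CPM) overlapped Podn (2.61 and 2.88 CPM). The levels ran from 2363 CPM for Bgn in WT 1 to 0.0812 CPM for Fmod in WT 2.

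Biglycan (Bgn) and decorin (Dcn), with asporin (Aspn), form the first class of the family; biglycan and decorin carry chondroitin or dermatan sulfate chains, and asporin has a run of aspartate in their place. Bgn stood at 2363 and 2305 CPM in the control libraries and at 916 and 892 CPM in the knockouts. The groups lay far apart, with each KO library at under 40% of either WT library. The log2 change was −1.37 (SE 0.05, 95% interval −1.49 to −1.24, adjusted p = 4.0e-06, edgeR), and KO cells held 38.7% of the WT level. Aspn stood at 44.9 and 37.4 CPM in the controls and at 2.91 and 2.51 CPM in KO. Its log2 change, the largest of the falls, was −3.92 (SE 0.13, 95% interval −4.21 to −3.62, adjusted p = 2.0e-06), which left 6.59% of the WT level.

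Dcn went the other way. It stood at 10.9 and 8.96 CPM in the controls and at 23.5 and 35.5 CPM in KO, and its log2 change was 1.58 (SE 0.19, 95% interval 1.13 to 2.02, adjusted p = 0.00108). Even in KO its level was thus far below that of Bgn, the protein most like it. The groups did not overlap, as in 63.5% of all tested genes, and KO 2 was well above KO 1.

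Lumican (Lum), fibromodulin (Fmod), prolargin (Prelp) and osteomodulin (Omd) belong to the second class, whose members carry keratan sulfate or, in prolargin, an end rich in basic residues that binds heparan sulfate. Omd stood at 24.4 and 23.2 CPM in the controls and at 4.45 and 4.57 CPM in KO, a log2 change of −2.40 (SE 0.09, 95% interval −2.61 to −2.19, adjusted p = 3.7e-06). The replicates of each genotype lay close together, and 18.9% of the WT level remained. Lum stood at 1.20 and 0.894 CPM in WT, or 42 and 44 UMIs, and at 10.8 and 18.6 CPM in KO, or 640 and 955 UMIs. Both KO libraries were above both WT libraries, and the log2 change was 3.83 (SE 0.30, 95% interval 3.12 to 4.53, adjusted p = 0.000134).

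Prelp, the third most abundant gene of the family, stood at 287 and 286 CPM in the controls and at 318 and 287 CPM in KO. KO 2 lay between the WT libraries, KO 1 lay above them, and the log2 change of 0.08 (SE 0.07, 95% interval −0.08 to 0.24, adjusted p = 0.462) did not pass. The interval leaves room for a change of at most 0.24 on the log2 scale, far smaller than the changes of Bgn, Aspn, Omd, Dcn and Lum. Fmod was scarce, with 19, 4, 12 and 50 UMIs in WT 1, WT 2, KO 1 and KO 2. The genotypes overlapped, the interval ran from −1.01 to 3.02 and the adjusted p was 0.459, so that no change of Fmod was detectable at this depth. Of the 50 UMIs in KO 2, 35 came from 1 cell, and without KO 2 the estimate was −0.50 in place of 1.00.

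Osteoglycin (Ogn, also called mimecan) belongs to the third class and was second to Bgn in both genotypes. It stood at 1183 and 1142 CPM in the controls and at 816 and 814 CPM in KO. The fall was the smallest of the 4 that passed, −0.51 on the log2 scale (SE 0.05, 95% interval −0.64 to −0.39, adjusted p = 0.000571), and 70.1% of the WT level remained.

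Podocan (Podn), from a later-described class, stood at 2.01 and 1.08 CPM in the controls and at 2.61 and 2.88 CPM in KO, from 70, 53, 155 and 148 UMIs. Both KO libraries were higher, but the log2 change of 0.86 (SE 0.28, 95% interval 0.22 to 1.50) had an adjusted p of 0.0643. It passed under 5 of 16 alternatives, among them the fit with the replicate number as a block (adjusted p = 0.0175) and the one without WT 1 (adjusted p = 0.00783, log2 1.34). Without WT 2 its log2 change was 0.45 with an adjusted p of 0.235.

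**Figure D2:**
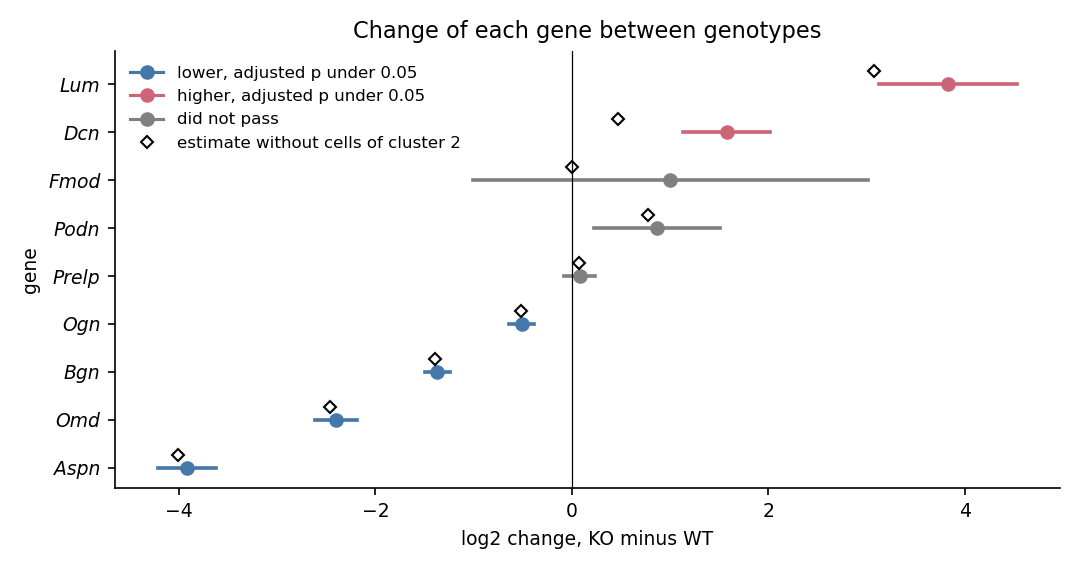
Log2 change between KO and WT (horizontal axis) of each gene with its 95% interval, coloured by whether it passed an adjusted p of 0.05; open diamonds give the estimate without the cells of cluster 2. Aspn, Omd, Bgn and Ogn lie left of 0 with or without those cells, while the Dcn estimate moves from 1.58 to 0.47 and that of Fmod from 1.00 to 0.00. Cluster 2 was picked for its Dcn and Lum, so a smaller Dcn change without it was built in.

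How many cells carried each transcript was compared after every cell was thinned to 5000 UMIs, leaving out 197, 162, 150 and 169 shallower cells in WT 1, WT 2, KO 1 and KO 2. No test was made of shares, since 2 libraries against 2 cannot give an exact permutation p below 0.333. Bgn was found in 99.96%, 100% (3103 of 3103 cells), 97.4% and 97.0% of cells in WT 1, WT 2, KO 1 and KO 2. Its median was 11 UMIs per cell in each WT library and 4 in each KO library, and 2.41% and 2.24% of KO cells were above 11, against 48.4% and 45.5% of WT cells. The distribution had thus moved as a whole. Ogn was found in 95.6% and 94.9% of WT cells and in 86.1% and 84.1% of KO cells, with medians of 5 and 3. Its distributions overlapped far more, with 29.0% and 28.8% of KO cells above the WT median, against 47.6% and 45.6% of WT cells. Prelp was found in 69.1%, 66.8%, 73.1% and 67.4% of cells, with a median of 1 in each library. Without thinning, Bgn was found in 98.9% to 99.4% of the cells of every library, Ogn in 96.7%, 96.8%, 92.3% and 90.1%, and Prelp in 83.6% to 89.1%.

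Before thinning, Aspn had been found in 25.4%, 23.1%, 3.15% and 2.84% of cells. After it the shares were 13.7% (exact binomial 95% interval 12.3% to 15.2%) in WT 1, 12.0% (10.9% to 13.2%) in WT 2, 1.51% (1.16% to 1.93%) in KO 1 and 1.22% (0.879% to 1.66%) in KO 2. These intervals cover counting error only. Had every WT cell held the library's mean, 19.2% and 17.2% of cells would have shown Aspn, more than were seen, so that Aspn was unevenly spread among WT cells. Omd was nearer to an even spread: it was found in 10.7% and 10.4% of WT cells, where 12.3% and 11.5% would be seen if all cells were alike, and in 1.88% and 1.79% of KO cells. Without thinning its shares were 22.5%, 22.9%, 5.17% and 5.00% in WT 1, WT 2, KO 1 and KO 2, so that the order of the genotypes was the same.

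Dcn and Lum came from few cells. Dcn was found in 2.91% and 1.90% of WT cells and in 3.14% and 3.58% of KO cells, and an even spread would have given 6.00%, 4.96%, 11.7% and 15.98%. The 1% of cells with the most Dcn held 62.1% and 78.7% of its UMIs in WT and 75.8% and 77.0% in KO. In cells with any Dcn after thinning, its mean was 2.12 and 2.68 UMIs in WT and 3.95 and 4.87 in KO. Lum was found in 0.358% and 0.258% of WT cells and in 1.66% and 2.00% of KO cells, and the top 1% of cells held 87.5% and 88.3% of its UMIs in KO. Podn was found in 0.627% and 0.645% of WT cells and 1.44% and 1.34% of KO cells, and there the even spread would have given nearly the same shares, 0.714%, 0.643%, 1.48% and 1.45%. With so few UMIs per cell these must nearly meet unless single cells hold several UMIs, so they say little about the spread of Podn. In the clusters described below, KO cells held Podn at 12.3 and 18.7 CPM in cluster 2, against 2.08 and 2.25 CPM in cluster 5. The unthinned shares were 4.57%, 3.31%, 5.08% and 5.93% for Dcn, 0.823%, 0.367%, 2.40% and 2.64% for Lum, and 2.39%, 1.56%, 3.22% and 3.75% for Podn in WT 1, WT 2, KO 1 and KO 2.

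**Figure D3:**
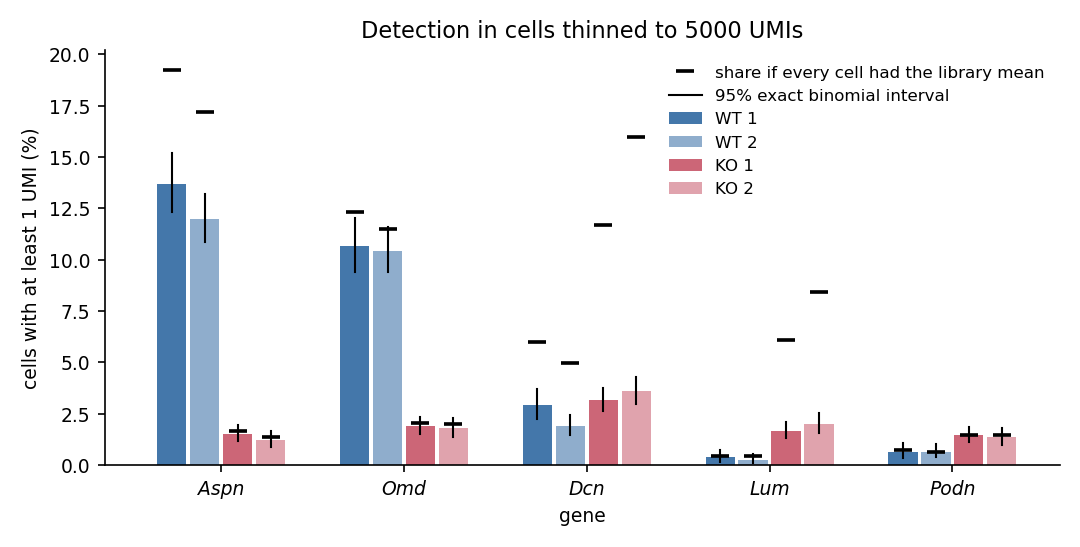
Share of cells with at least 1 UMI (percent, vertical axis) for 5 genes in cells thinned to 5000 UMIs, by library, with exact binomial 95% intervals; dashes mark the share that would be seen if every cell held its library's mean. For Dcn and Lum the dashes of the KO libraries stand far above the bars (11.7% and 15.98% against 3.14% and 3.58% for Dcn). For Podn they nearly meet, which at so few UMIs per cell says little about its spread.

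No cell type that lacks these transcripts was found, so no background from free RNA can be set beside the shares. In 10 cells with UMIs of at least 6 of 12 endothelial markers (median 8300.5 UMIs, against 14546.5 in all kept cells), Bgn was found in 9, Dcn and Ogn in 3, Prelp in 2, Lum and Omd in 1, and Aspn, Podn and Fmod in 0. They held 259 Bgn, 30 Dcn and 17 Lum UMIs. All 10 were KO cells.

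Cells with Lum often had Dcn too, but most cells with Dcn had no Lum. After thinning, 4 of 65 cells with Dcn in WT 1, 6 of 59 in WT 2, 40 of 129 in KO 1 and 44 of 120 in KO 2 also had Lum. Of the cells with Lum after thinning, 4 of 8 in WT 1, 6 of 8 in WT 2, 40 of 68 in KO 1 and 44 of 67 in KO 2 also had Dcn, where 0.233, 0.152, 2.14 and 2.40 such cells would come from the 2 shares alone. Among cells with any Lum UMI before thinning, 36 of 102 in KO 1 and 30 of 93 in KO 2 had at least 1 of 6 fibroblast markers, against 8.58% and 9.77% of the cells without Lum. For Dcn the shares were 24.1% and 25.4%, against 8.42% and 9.42%. Median depths of Lum-positive and Lum-negative cells were 15092.5 and 13882.5 UMIs in KO 1 and 14802 and 14395 in KO 2. The Lum-positive cells of KO still had smooth muscle markers at medians of 44387 and 41079 CPM, against 59573 and 56381 CPM in the cells without Lum. Over whole libraries, 4 fibroblast markers were higher in KO (Dpt, Ly6a, Cd34 and Serpinf1), 2 were lower (Smoc2 and Col14a1), 4 did not pass and 2 were not tested. Those that did not pass were Pdgfra, at 5.53, 6.54, 6.97 and 7.66 CPM, and Pi16, Clec3b and Scara5. Dpp4 was at 0 UMIs in 3 of the 4 libraries. Macrophage genes added up to 1.96 and 1.79 CPM in the controls and to 12.8 (KO 1) and 1.82 CPM (KO 2). Of 12 endothelial markers 5 were higher and 3 lower in KO, 1 did not pass and 3 were not tested. Of all tested genes 9.17% were called higher and 11.1% lower. The 12 markers summed to 75.4 and 72.9 CPM in the controls and 62.4 and 60.1 CPM in the knockouts. The lower ones were Pecam1, Flt1 and Erg, at 11.7 to 28.3 CPM across libraries, with log2 changes of −0.402, −0.398 and −0.812. Cdh5 and Tek, which define endothelium, were at 0 in the controls and at 0.505 and 0.603 CPM and at 0.539 and 0.428 CPM in the knockouts. Without the 10 cells with endothelial markers, an alternative added after seeing the data, Dcn and Lum still passed, with log2 changes of 1.56 and 3.81. The part of the other cell types in the higher Dcn and Lum was not tested. In bulk sums of this kind, more cells with a transcript and more transcript per cell cannot be told apart without the shares given above.

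Dcn and Aspn were found together in 8 cells of KO 1 and 8 of KO 2, where 1.95 and 1.47 would come from the 2 shares alone. These expected numbers are too small for a ratio, for which at least 5 was required. In WT 1 and WT 2 the pair was found in 7 and 9 cells, where 8.91 and 7.07 would come from the shares. Aspn and Omd were found together in 33 and 46 WT cells, 1.01 and 1.18 times the number expected. Ogn and Prelp were found together in 1.01, 1.02, 1.03 and 1.05 times the number expected in WT 1, WT 2, KO 1 and KO 2. Ogn was in 95.6%, 94.9%, 86.1% and 84.1% of these cells, so that ratio could not rise far above 1. It says little about whether the 2 genes go together. A WT cell held on average 2.93 and 2.87 of the 9 transcripts and a KO cell 2.66 and 2.59. Cells with 4 of them made up 17.9% and 14.2% of WT cells and 4.68% and 3.91% of KO cells.

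Across the cells of a library, the genes whose levels were most like that of Bgn were Pam, an enzyme that amidates peptides (mean Pearson r over 4 libraries 0.348), Cpe, a carboxypeptidase (0.302), Serpine2, a serine protease inhibitor (0.300), Igfbp7 (0.296) and Sparc, a collagen-binding matricellular protein (0.292), among 10189 genes compared. For Ogn they included Rbp4, the retinol carrier (0.303), Prelp (0.300), Cped1 (0.257) and Myh11, the smooth muscle myosin heavy chain (0.245). For Prelp they were Ogn (0.300), Aebp1 (0.278), Postn (0.269), Tm4sf1 (0.259) and Bcam (0.250). No gene reached 0.2 for Aspn or Omd. Bgn and Ogn, the most abundant members, were nearly unrelated, with r of 0.03 and 0.02 in the WT libraries and −0.09 and −0.10 in the KO libraries. Cells share their library and differ in depth, so these values only describe.

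The cells were also clustered from 2000 variable genes that left out the 9 members, which gave 8 clusters. Cluster 0 (led by Mfap4 and Nupr1) held 87.1% and 84.2% of WT cells and cluster 5 (led by Itih4 and Actc1) 85.6% and 74.5% of KO cells. Cluster 3 (led by Rgs5 and Fbln1) was nearly all WT, with 106 and 296 cells, and cluster 7 (led by Adamtsl1, Prrx2 and Dlx6) all KO, with 244 and 575 cells. All of these were rich in smooth muscle transcripts. Since clusters 0, 3, 5 and 7 were all or nearly all of 1 genotype, levels were compared mainly within a genotype. Where such clusters of different genotype are set side by side below, they need not hold like cells. Only cluster 1, of low depth (median 3638 UMIs) and unnamed, had at least 50 cells in every library, and there Bgn stood at 2850 and 2302 CPM in the controls and at 963 and 1141 CPM in KO. Aspn stood there at 34.5 and 51.6 CPM in WT against 6.46 and 1.51 CPM in KO, from 24, 41, 5 and 1 UMIs.

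Cluster 3 of WT set the members apart from one another. Aspn stood at 3.35 and 3.57 CPM there, against 46.5 and 40.3 CPM in cluster 0 of the same libraries, from 5 and 15 UMIs. Prelp stood at 96.4 and 79.8 CPM against 293 and 302 CPM, and Ogn at 829 and 781 CPM against 1190 and 1168 CPM. Bgn, by contrast, was at 2899 and 2771 CPM against 2309 and 2238 CPM, and Omd at 26.8 and 21.7 CPM against 24.1 and 23.1 CPM. Each of these differences except that of Omd had the same direction in both WT libraries. These 106 and 296 cells held 1 Dcn UMI in each library and 0 Lum UMIs. Between clusters 7 and 5 of KO, Prelp was at 160 and 127 CPM against 331 and 320 CPM, Ogn at 558 and 518 CPM against 841 and 890 CPM, and Bgn at 1160 and 1115 CPM against 889 and 838 CPM. Lum was at 9.55 and 10.3 CPM against 3.35 and 7.96 CPM, and Dcn at 8.87 and 8.72 CPM against 8.34 and 14.8 CPM. Bgn in cluster 3 of WT was still above Bgn in cluster 7 of KO, and so was Ogn, while Prelp was lower. Nothing here matches these clusters to each other, and the 5 and 7 KO cells in cluster 3 had Bgn at 5921 and 4983 CPM. Fibroblast markers moved with the differences between clusters of a genotype. They summed to 499 CPM in cluster 3 against 126 CPM in cluster 0 and to 271 CPM in cluster 7 against 90.6 CPM in cluster 5. Their part was not tested. Smooth muscle markers summed to 35323 CPM in cluster 3 and 52967 CPM in cluster 0. No test was made, as the cells of a library are not replicates.

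Cluster 2, of 185 cells (21, 12, 92 and 60 in WT 1, WT 2, KO 1 and KO 2), was led by interferon-induced genes with Vcam1 and Thbs1 and had the most Dcn and Lum. In its KO cells Dcn stood at 633 and 1221 CPM and Lum at 315 and 605 CPM, and these 92 and 60 cells held 58.9% and 53.6% of the Dcn UMIs and 63.9% and 50.7% of the Lum UMIs of their libraries. A sub-cluster of 67 cells (4, 1, 35 and 27), led by Cp, C1qa and Serpinf1, had fibroblast markers at 1299 CPM and macrophage markers at 591 CPM beside smooth muscle markers at 37465 CPM. It stayed unnamed. At the finer resolution of 1.0 the cells with the most Dcn and Lum and the cells led by interferon-induced genes fell into different clusters. A cluster of 390 cells led by Tnnt2, Corin, Thbs1 and Cp then held 56.4% and 55.4% of the Dcn UMIs and 73.1% and 58.2% of the Lum UMIs of KO 1 and KO 2, and one of 92 cells led by Isg15 and Ifit3 held 11.3% and 0.987% of Dcn and 3.44% and 0.628% of Lum. With cluster 2 of the main resolution left out, a choice made after seeing its Dcn and Lum, the log2 change of Dcn was 0.47 with an adjusted p of 0.173 (edgeR), so that the call was lost. The cluster was picked for having the most Dcn and Lum, and most of its cells were KO, so a smaller Dcn change was built in. The log2 change of Lum was 3.07 with an adjusted p of 0.00203. Among the remaining KO cells, those of cluster 5 had Dcn at 8.34 (KO 1) and 14.8 CPM (KO 2), against 9.88 and 9.27 CPM in WT cluster 0. Lum was there at 3.35 and 7.96 CPM against 0.645 and 0.769 CPM. The 106 and 88 KO cells of cluster 6 (led by Cdkn1a and Gdf15) had Dcn at 65.6 and 117 CPM. These KO cells held 7.32% and 8.83% of the Dcn UMIs of KO 1 and KO 2. The 10 and 15 WT cells of cluster 6 had Dcn at 237 and 80.1 CPM, from 24 and 15 UMIs. Without cells that had UMIs of at least 2 of the 6 fibroblast markers (12, 20, 28 and 38 cells), Dcn and Lum both still passed, with log2 changes of 1.31 (adjusted p = 0.00207) and 3.60 (adjusted p = 0.000183).

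**Figure D4:**
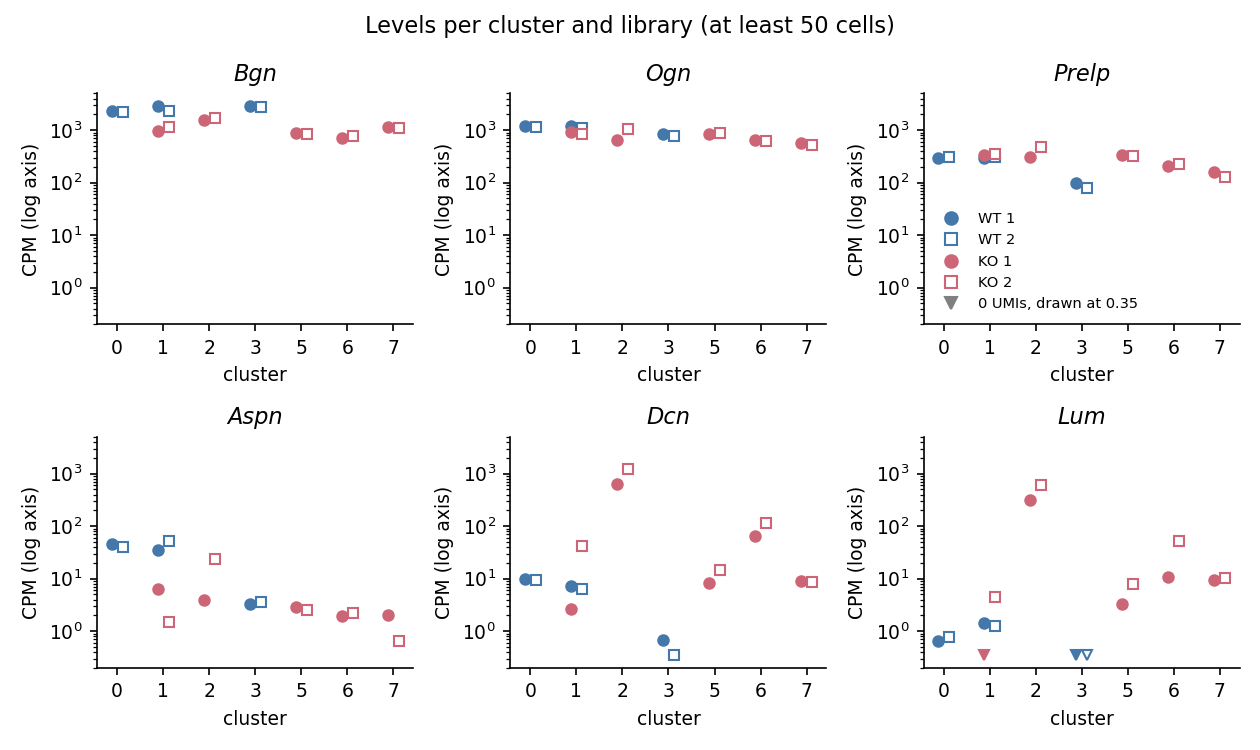
CPM (log axis) of 6 genes in each cluster with at least 50 cells of a library; blue is WT, red KO, circles replicate 1, squares replicate 2, and triangles mark 0 UMIs. Aspn and Prelp stand lower in cluster 3 than in cluster 0 of WT, Prelp lower in cluster 7 than in cluster 5 of KO, and Dcn and Lum highest in cluster 2.

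The genes lie in groups on the genome (GENCODE M21, GRCm38). Ecm2, Aspn, Omd and Ogn follow each other on the plus strand of chromosome 13, with Aspn from 49544443 to 49567565, Omd from 49582462 to 49592822 and Ogn from 49608046 to 49624501. The gap from Aspn to Omd is 14.9 kb and that from Omd to Ogn 15.2 kb. Ecm2, a leucine-rich matrix protein akin to the family, ends 11.7 kb before Aspn. It stood at 323 and 314 CPM in the controls and at 117 and 121 CPM in KO, a log2 change of −1.42 (SE 0.06, adjusted p = 6.7e-06). All 4 genes of the row were thus lower in KO, by amounts from −3.92 in Aspn to −0.51 in Ogn, and the starts of 3 of them are printed above. The tested genes on either side, Bicd2, Ippk and Tes3-ps before the row and Nol8 and Iars after it, did not pass, with log2 changes between −0.17 and 0.14. Cenpp, which overlaps Aspn, Omd and Ogn on the other strand, was at 0.946 to 1.21 CPM and did not pass. The labels do not say whether counting used the strand.

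**Figure D5:**
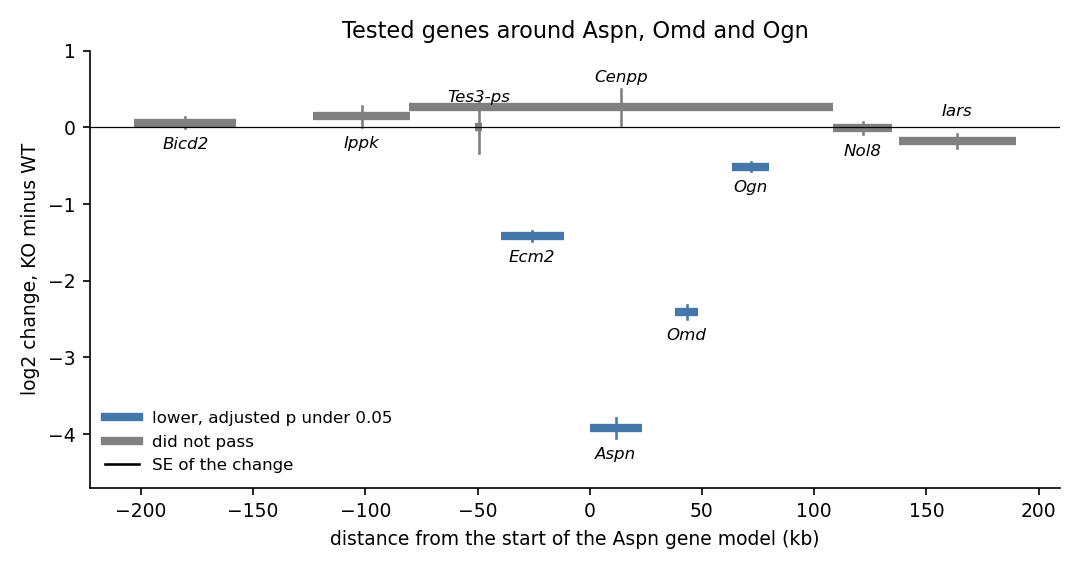
Log2 change between KO and WT (vertical axis) of the tested genes within 200 kb of Aspn, Omd or Ogn, drawn along their gene bodies by distance from the start of Aspn in kb; thin lines are SEs. Ecm2, Aspn, Omd and Ogn lie below 0 side by side, and the genes around them lie near 0.

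Over all 9 genes, 25 tested genes that are not members had their bodies within 200 kb of one, and 1 of these was lower (Ecm2) and 1 higher (Adora1, an adenosine receptor gene 150.9 kb from Fmod, at 1.38, 1.26, 2.63 and 2.02 CPM, log2 0.83, adjusted p = 0.0317). Dcn and Lum lie 47.0 kb apart on chromosome 10, from 97479609 to 97518143 and from 97565128 to 97572703, on the same strand. Kera and Epyc, the other family genes of that stretch, had 0 UMIs in every library and 0, 0, 3 and 0 UMIs. Prelp (chromosome 1, 133910304 to 133921414, minus strand) and Fmod (134037254 to 134048277, plus strand) are 115.8 kb apart. Optc, a third-class relative known mainly from the eye, lies 2.3 kb beyond the 3′ end of Prelp on the same strand. It was counted at 201, 224, 232 and 211 CPM and did not pass (log2 0.06, adjusted p = 0.637), as Prelp did not. Across cells the correlation of Optc with Prelp was 0.12 to 0.18 per library. Podn (chromosome 4, 108014791 to 108096445) overlaps Scp2, a lipid carrier gene, on the same strand, and exons of Scp2 lie within the Podn gene body. Scp2 was at 223 to 242 CPM. Both genes are on the minus strand, with 3′ ends at 108014791 (Podn) and 108043839 (Scp2). Whether reads of Scp2 entered the Podn count was not tested. Bgn lies on chromosome X from 73483602 to 73495933, and none of its 5 tested neighbours within 200 kb passed.

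Among the other family genes listed, Ecm2 (323 and 314 CPM in the controls) and Optc (201 and 224 CPM) were abundant. The rest were scarce, with Chadl the highest of them in the controls at 6.74 and 6.36 CPM. Of 9 listed, 5 passed the filter on low counts, 1 was lower (Ecm2) and 0 were higher. The median log2 change was −0.96, the value of Tsku. Tsku stood at 1.35 and 1.12 CPM in the controls and at 0.758 and 0.486 CPM in KO with an adjusted p of 0.0553, which fell below the threshold under 7 of 16 alternatives, the replicate block among them (adjusted p = 0.0202). Nyx stood at 0.430, 0.427, 0.135 and 0.292 CPM with an adjusted p of 0.151. Optc and Chadl, the other tested genes, had log2 changes of 0.06 and −0.06.

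The counts in each list of related genes are to be read against the 9.17% of all tested genes called higher and the 11.1% called lower. The sugar chains of the proteoglycans are begun at a linkage region, extended by chondroitin or keratan enzymes and then sulfated. Of 16 tested genes of the linkage region and sulfate supply, 1 was higher and 3 were lower (median log2 change −0.04). Xylt1, which starts the linkage, fell by 0.56 (adjusted p = 0.00768) and the sulfate transporter Slc26a2 by 0.54 (adjusted p = 0.00716), while the xylose phosphatase Pxylp1 rose by 1.00 (adjusted p = 0.00364). Of 15 tested chondroitin and dermatan sulfate enzymes, 6 were lower, a share of 40%, and 0 higher (median −0.32). Chst3, a chondroitin 6-sulfotransferase, fell from 23.3 and 23.7 to 12.1 and 13.0 CPM (log2 −0.91, adjusted p = 0.000265), and the polymerising enzymes Chpf and Chsy1 fell by 0.59 and 0.52 (adjusted p = 0.000941 and 0.00312). None of 6 tested keratan sulfate enzymes passed (edgeR; median 0.09). The 3 with the smallest p among them were B4galt1, Fut8 and B4galt4, with log2 changes of 0.13, 0.17 and −0.21 and adjusted p from 0.162 to 0.230.

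Of 9 tested proteases that cleave members of the family or help to process them, 4 were higher (44.4%) and 2 lower (22.2%), with a median of 0.31. Htra1, a serine protease, fell from 349 and 412 to 162 and 170 CPM (log2 −1.20, adjusted p = 8.6e-05). Mmp3, stromelysin, rose from 0.545 and 1.04 to 8.20 and 6.26 CPM (log2 3.14, adjusted p = 0.000189), and the aggrecanase Adamts5 rose from 40.2 and 38.5 to 66.7 and 67.5 CPM (log2 0.77, adjusted p = 0.000217). Of 12 tested receptors, 3 were higher (25%) and 1 lower (8.33%), with a median of 0.18. Cd44, a receptor for hyaluronan and other matrix ligands, rose by 0.81 (adjusted p = 0.000669), the endocytic receptor Lrp1 fell by 0.52 (adjusted p = 0.00179), and Egfr rose by 0.44 (adjusted p = 0.0292), a call lost under 3 of 16 alternatives.

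The matrix proteins that the family binds moved mostly one way: 10 of 14 tested were lower and 0 higher (median −0.80). Col3a1, the collagen of fine fibrils, fell from 1300 and 1313 to 433 and 413 CPM (log2 −1.63, adjusted p = 3.0e-06). Eln, elastin, fell from 2769 and 2791 to 331 and 236 CPM (log2 −3.29) and Lox, which crosslinks both proteins, from 187 and 181 to 38.4 and 44.3 CPM (log2 −2.15). Of 10 tested growth factors that members bind, 6 were lower (60%) and 2 higher (20%), with a median of −0.35. Ccn2, a matricellular factor, had a log2 change of −2.56, Pdgfb −1.35 and Pdgfa −0.68, with adjusted p from 9.6e-05 to 0.0013. Of the matrix partners 71.4% were called lower, against 11.1% of all tested genes. The lists were chosen with earlier results of these data known, and nothing about them is read from these counts beyond the counts themselves.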

How the data were processed

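The deposited matrices hold raw UMI counts per gene and cell barcode, which per the file headers the authors made using Cell Ranger 5.0.1. The submitters' processing notes name the build mm10 and Seurat 4.0. The files list 14696 barcodes (2769, 3565, 4504 and 3858 in WT 1, WT 2, KO 1 and KO 2). The labels state 2597, 3420, 4376 and 3707 cells before and 2151, 3000, 4031 and 3246 after a filter with criteria not given in the sources used. Kept here were cells with 1000 or more UMIs, 500 or more genes and no more than 10% mitochondrial UMIs (2429, 3265, 4252 and 3522). No doublets were removed; one alternative leaves out the 2% of cells with the most UMIs. Libraries shared 2 to 5 barcodes.

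Counts were summed per library and fitted over 14474 genes with edgeR 4.0.16 (quasi-likelihood test, TMM, filterByExpr, R 4.3.3), with Benjamini-Hochberg adjustment and a threshold of 0.05. The biological coefficient of variation came to 7.84%. Chi-square over its degrees of freedom was 13.3 for the WT and 15.0 for the KO libraries, so replicates differed by more than counting error. CPM values use TMM-scaled totals. DESeq2 1.42.0 and limma 3.58.1 were alternatives. The test was also checked on simulated data. Leaving out endothelial-like cells had been planned, but no cluster or sub-cluster at resolution 0.5 isolated them, so they stayed in the fit. At resolution 1.0 a cluster of 9 KO cells was led by Cytl1, Ptprb, Vwf and Pecam1. An alternative removed 10 cells with endothelial markers.

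Shares used cells thinned to 5000 UMIs (seed 1). Clusters came from scanpy 1.11.5 (Leiden, resolution 0.5, 30 components, 15 neighbours). The 6 fibroblast markers used on single cells are a subset of the 12. Named genes are the 9 members, the 3 genes of smallest p in each list, tested neighbours within 200 kb and the 5 genes most like each member found in at least 20% of the cells of both WT libraries, where r was at least 0.2. One gene that this rule names is not reported here. The members, lists and alternatives were chosen with earlier results of these data known, and the 4-base motif after the sequences were seen. Gene positions are from GENCODE M21, which held 32158 of 32287 identifiers, and start-site sequences from RefSeq (GRCm38.p6).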

Additional observations from a re-analysis of the deposited data

How the results depend on the processing

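The 4 members lower in KO (Bgn, Ogn, Aspn, Omd) passed under each alternative in which they were tested, with log2 changes of −1.39 to −1.34, −0.54 to −0.48, −4.05 to −3.78 and −2.48 to −2.37; with a mean of at least 20 CPM required, Omd was not tested. The count of members higher in KO was 2, and it was 0 with that 20 CPM minimum, under which Dcn and Lum are not tested, 1 without the cells of cluster 2 (Dcn lost), and 2 to 3 when each library was left out in turn, the third being Podn without WT 1. Podn also passed with limma-voom, with no filter on low counts, without the cells of highest UMI count and with the replicate block. Over all genes, 629 were higher and 918 lower with the 20 CPM minimum, where fewer genes are tested; without one library the counts ran from 805 to 1161 and from 1039 to 1297, lowest without WT 1, where the lone WT library is assumed to vary like the KO libraries. Fmod ranged from −0.50 (without KO 2) to 2.79 (without WT 1) and never passed. With the replicate number as a block, 3 members were higher and 4 lower (1523 and 1751 of all genes); the deviations of same-numbered libraries had a correlation of −0.00 over 5743 genes, so the numbers give no sign of pairing. Among the 148 alternative values of the members' log2 changes 142 stayed on their side of the threshold (2 of them with the other sign, both Fmod), 5 gained a call (Podn) and 1 lost it (Dcn). That loss came without cluster 2, which was picked for its Dcn and Lum. Of 47 alternative values of shares, members per cell and cluster contents (no thinning or thinning to fewer UMIs, at least 2 UMIs, without cells with fibroblast markers, resolution 1.0), 25 moved. Shares and members per cell were called moved beyond the larger SD between replicates, and cluster contents beyond a fixed margin in percentage points. No thinning, thinning to fewer UMIs and a minimum of 2 UMIs change what counts as detected. Shifts in the size of those differences were thus partly built in. The KO minus WT difference in shares changed sign only for Fmod with at least 2 UMIs, from 0.0478 to −0.0075 percentage points. What else moved the values was not tested. Depth limits Fmod, Podn and the WT level of Lum, with 4 to 70 UMIs in a WT library.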
